A study of Mus musculus with 6 samples.

Results

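The genes described here are the Myc genes Myc and Mycn and 32 genes of the nucleolus, the nuclear compartment in which ribosomes are built: 34 of the 18193 genes measured. They were taken by gene symbol from a fixed list of names. For each gene the probe set selected had the highest mean log2 signal over the 6 arrays; the list itself was proposed with earlier results of these data known. All 34 symbols were found, on 71 probe sets in all, and the remaining Ncl probe sets are shown as well. The mean signal of the probe sets so chosen ran from 483 (Myc) to 28637 (Npm1), all above the median of 164 over all genes. That placing describes the choice and was not tested.

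Both genotypes were pools of mouse embryos of a mixed C57BL/6 and 129/Sv background at embryonic day 7.75 to 8 with 0 to 2 somites. The node and primitive streak, the tissue at the posterior midline through which cells leave to form mesoderm, was dissected from Wnt3a null embryos or from wild-type embryos. RNA was amplified in a first cycle from 30 to 50 ng and in a second cycle from 600 ng. RNA of each embryo went through the first cycle, and amplified RNA of 3 embryos of a genotype was pooled. Each pool was hybridised to 1 Affymetrix whole-genome mouse array. This gave 3 null and 3 wild-type arrays, numbered 1 to 3 in each genotype, from 9 embryos per genotype. The study asked which genes act downstream of Wnt3a, a secreted Wnt ligand, before the mutant embryos can be told apart by shape. The labels do not say which part of Wnt3a the null allele alters, so the signal of its probe set does not check the genotypes. It read 961, 761 and 1009 in null pools 1 to 3, against 864, 1058 and 996 in their wild-type counterparts.

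Myc proteins are transcription factors that pair with Max, bind the E-box sequence CACGTG and promote cell growth. Among their best known targets are the genes for building ribosomes, and in many cell types Myc itself is a target of Wnt signalling through beta-catenin and TCF/LEF factors. In the nucleolus RNA polymerase I makes a long precursor RNA, small nucleolar RNA-protein particles (snoRNPs) guide its chemical modification, and separate sets of processing factors assemble the small and the large ribosomal subunit around it. Cells of the gastrulating embryo divide fast and make ribosomes at a high rate.

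No member passed the test of a difference between the genotypes. In limma's test without a replicate block, 0 of the 34 genes passed an adjusted p of 0.05, in a table where 0% of the 18193 genes passed. At an unadjusted p under 0.05 it was again 0 of 34, against 5.17% of all genes. A second limma fit, which sets the null and wild-type arrays of one replicate number against each other and models the variance with trend and robust options, called 0.0605% of all genes (11 genes) and 0 of the 34. Differences, null minus wild type, ran from -0.38 on the log2 scale in Polr1b to 0.29 in Rrp12. On the signal scale these are 1.30-fold and 1.22-fold.

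The data also bound what could have been missed. For the chosen probe sets, the 95% interval of the difference lay within 2-fold for 30 of the 34 genes without the block. In the paired trend and robust fit it did so for all 34. The exceptions without the block were Myc, Nop56, Rrp12 and Nob1. Within 1.5-fold it lay for 19 and for 32 genes. Other probe sets of these genes are not covered by the counts. The Ncl probe set with the suffix x_at, described below, had an interval of 0.28 to 1.28 without the block. In the paired trend and robust fit it was 0.55 to 1.01, and both reach past 2-fold. Intervals are for 1 gene at a time, and the labels do not say what arrays of one number share. With 3 arrays a group, an exact permutation test cannot go below p = 0.1, so no such test is given for single genes.

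Promoter sequence is shown for 4 members. Ncl and Polr1b are the genes on which the values below turn most. Rrn3 and Nop2 are the members with an E-box upstream of the start. The windows are from RefSeq, assembly GRCm38.p6, written 5′ to 3′ on the gene's strand and ending at or before the base ahead of the annotated start. Capitals mark CACGTG, which reads the same on both strands.
Ncl, chr1:86359456-86359705, minus strand: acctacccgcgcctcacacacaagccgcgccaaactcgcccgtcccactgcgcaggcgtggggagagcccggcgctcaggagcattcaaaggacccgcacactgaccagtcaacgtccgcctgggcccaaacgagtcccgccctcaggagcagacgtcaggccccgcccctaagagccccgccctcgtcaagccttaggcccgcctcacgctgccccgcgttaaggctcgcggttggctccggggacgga
Polr1b, chr2:129100746-129100969, plus strand: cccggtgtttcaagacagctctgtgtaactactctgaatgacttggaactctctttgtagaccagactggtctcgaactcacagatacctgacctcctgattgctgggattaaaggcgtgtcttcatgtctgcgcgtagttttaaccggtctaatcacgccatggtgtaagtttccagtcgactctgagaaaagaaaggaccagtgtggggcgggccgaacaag
Rrn3, chr16:13780449-13780698, plus strand: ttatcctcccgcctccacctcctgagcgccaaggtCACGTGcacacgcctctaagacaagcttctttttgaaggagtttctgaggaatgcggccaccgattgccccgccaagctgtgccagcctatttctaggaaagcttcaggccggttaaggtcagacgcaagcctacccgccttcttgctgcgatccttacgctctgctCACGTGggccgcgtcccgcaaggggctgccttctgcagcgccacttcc
Nop2, chr6:125131633-125131882, plus strand: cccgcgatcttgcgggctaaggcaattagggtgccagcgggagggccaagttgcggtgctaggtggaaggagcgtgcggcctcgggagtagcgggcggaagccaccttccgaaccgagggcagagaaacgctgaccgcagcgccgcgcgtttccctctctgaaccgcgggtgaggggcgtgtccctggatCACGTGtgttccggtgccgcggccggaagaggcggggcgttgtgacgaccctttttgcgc

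In Rrn3 the first bases of the 2 E-boxes lie at -215 and -48 from the start, and in Nop2 the E-box begins at -60. The Ncl and Polr1b stretches hold none. They also overlap other annotated genes, C130036L24Rik and Gm46764. Over windows from 250 bases before to 50 after the start, 28 of the 34 genes were in the table, with 35 windows. Myc, Npm1, Tcof1, Fbl, Rrp12 and Bop1 were not listed. CACGTG was present in 5 of the 35 windows (14.29%), those of Nop2, Rrn3, Utp20, Pes1 and Wdr43, and in 7.15% of all 32851 windows. In Utp20, Pes1 and Wdr43 it began after the start, at 38, 3 and 18. The TCF/LEF motif CTTTGAT, searched on both strands, was in 0 of the 35 and in 3.73% of all windows. The members' windows had a median GC content of 57.0%, against 52.67% for all. Their median count of the letter pair CG, which CACGTG contains, was 20, against 7 for all. The part of this in the E-box share was not tested. These are letter matches in short windows, and nothing about binding was measured. The 5 genes with an E-box differed by -0.15 (Utp20), -0.11 (Rrn3), 0.00084 (Pes1), 0.01 (Nop2) and 0.15 (Wdr43) on the log2 scale, so both signs occurred among them.

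**Figure D1:**
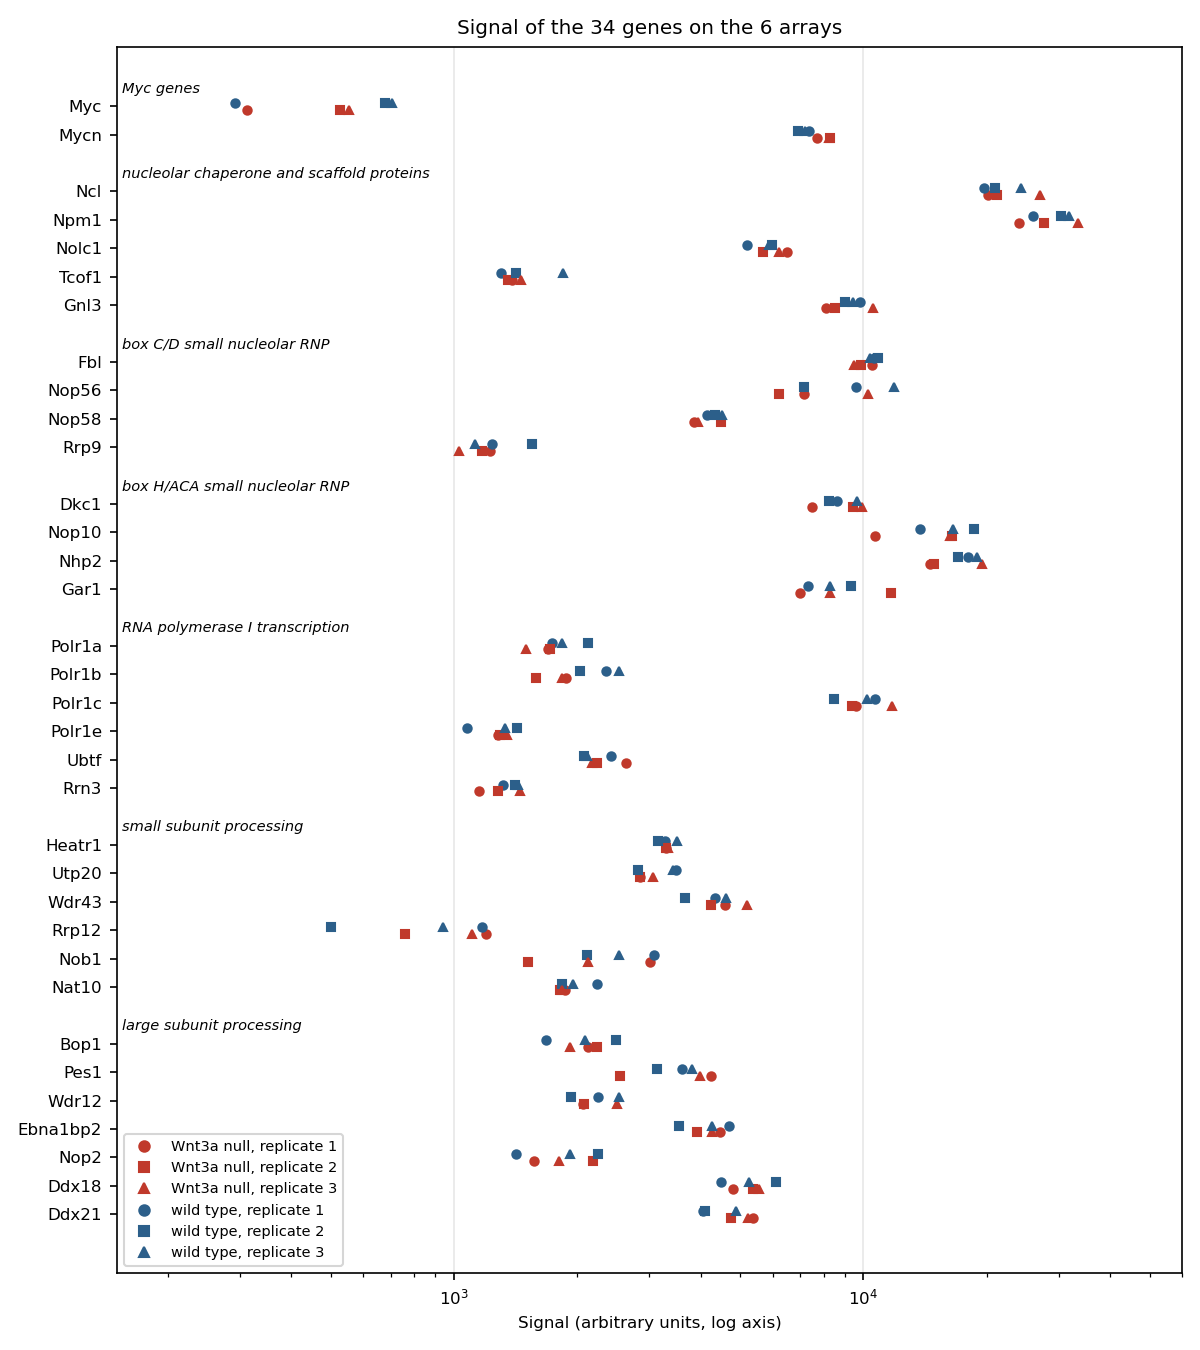
Signal of the 34 genes on the 6 arrays (log axis, arbitrary units), grouped by role. Red marks Wnt3a null and blue wild type, and the marker shape gives the replicate number. The groups lie apart only for Mycn, Polr1a and Polr1b, while for Nop2 the arrays fall into pairs by number.

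Myc read 311, 526 and 553 in null pools 1 to 3, and 292, 678 and 706 in wild-type pools 1 to 3. Both pools numbered 1 were the lowest, and the groups overlapped over most of their range. The difference was -0.21 on the log2 scale (SE 0.44, 95% interval -1.31 to 0.89, limma adjusted p = 1.00, n = 3 and 3). Within the numbers it was 0.09, -0.37 and -0.35. Of the spread (sum of squares) of Myc's log2 signal over the 6 arrays, 91.2% lay between replicate numbers and 4.35% between genotypes. Leaving out wild-type pool 1 moved the difference to -0.62, and leaving out null pool 1 turned it to 0.05.

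Mycn is a paralogue of Myc, and embryos need it to develop past midgestation. It gave 7700, 8301 and 8230 in null pools 1 to 3, and 7367, 6914 and 7190 in wild type. Here every null array lay above every wild-type array, as for 5.56% of all genes. The difference of 0.17 was small (95% interval -0.19 to 0.54, limma adjusted p = 1.00; 0.587 in the paired trend and robust fit). Unlike Myc, 80.1% of its spread lay between genotypes and 1.74% between numbers. The mean over its 3 probe sets was -0.20, since 1 dim probe set, with signals from 11.1 to 86.4, read -1.08. Levels of Myc and Mycn cannot be set against each other on this array.

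Among the nucleolar chaperones and scaffolds, Ncl (nucleolin, an RNA-binding protein that acts in transcription and processing of the precursor) was a gene whose probe sets gave unequal answers. The brightest read 20133, 21152 and 26941 in null and 19715, 20995 and 24207 in wild type, overlapping, with a difference of 0.07 (95% interval -0.42 to 0.55). Its 3 other bright probe sets read higher in null by 0.19, 0.39 and 0.78, and the dim one by -0.16. The value of 0.78 came from the Ncl probe set with the suffix x_at. It read 7361, 6641 and 8224 in null and 3735, 4719 and 4494 in wild type. All 3 null arrays lay well above all 3 wild-type arrays, a 1.72-fold ratio.

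In the test of every probe set by itself without the block, the x_at probe set had an unadjusted p of 0.0090 and an adjusted p of 0.757 (limma, 95% interval 0.28 to 1.28), where 0% of 34945 probe sets were called. In the paired trend and robust fit its adjusted p was 0.0418, 1 of the 13 probe sets called (0.0372%). With the block but without trend and robust options the adjusted p was 0.794. Leaving out both arrays of number 1 or of number 3 ended the paired call, with adjusted p of 0.111 and 0.206, and leaving out number 2 gave 0.0019. The other settings tried gave adjusted p from 0.571 to 1.00. The suffix marks probe sets some of whose probes closely match other sequences, and neither its probe sequences nor their positions in the transcript were used here. The probe set that differed by 0.19 also lay apart, from 6519 to 6767 in null and 5633 to 5959 in wild type. The one that differed by 0.39 overlapped, at 5576 to 6788 and 4024 to 5762. The 3' to 5' signal ratio of Gapdh, given with the array checks, did not overlap between the genotypes either, and its part in the spread among Ncl probe sets was not tested.

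**Figure D2:**
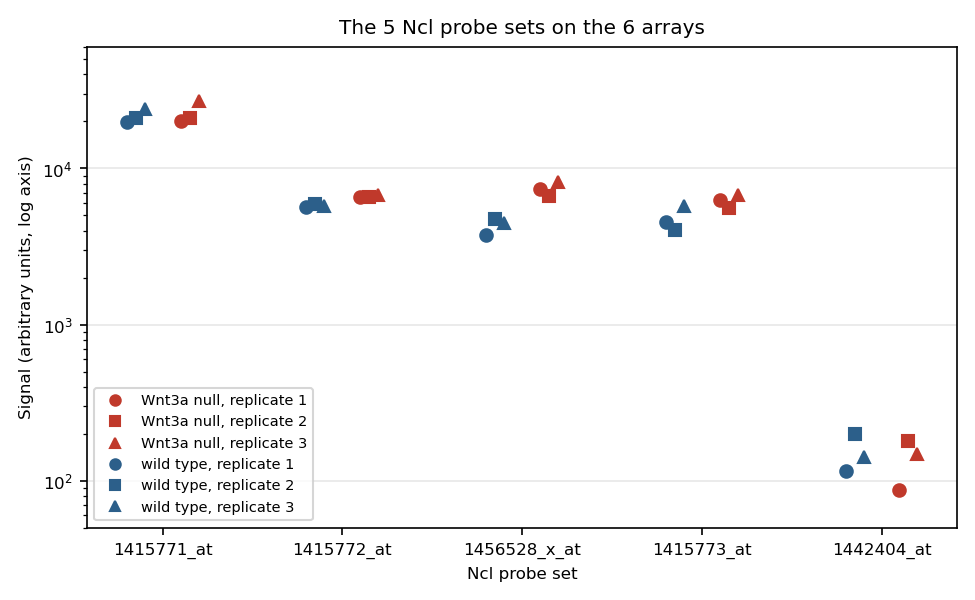
Signal of the 5 Ncl probe sets on the 6 arrays (log axis, arbitrary units), in order of mean signal, with red for Wnt3a null, blue for wild type and shapes for the replicate number. The null arrays lie above the wild-type arrays for the x_at probe set (log2 difference 0.78) and the one to its left (0.19) and overlap them for the other 3, the brightest included. Levels of different probe sets are not comparable.

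The other chaperones stayed close between the genotypes. Npm1 (nucleophosmin, a chaperone of histones and ribosomal proteins) ranged from 23939 to 33407 in null and from 25929 to 31739 in wild type, a difference of -0.06. Nolc1, which carries snoRNPs to the nucleolus, differed by 0.11, with 0.33 in number 1 and -0.08 in number 2. A second Nolc1 probe set differed by 0.33. Gnl3 (nucleostemin, a GTPase abundant in dividing stem cells) differed by -0.07, and Tcof1 (treacle, a cofactor of RNA polymerase I) by -0.11, with 1847 in wild-type pool 3 and 1304 to 1458 on the other 5 arrays.

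Box C/D snoRNPs mostly guide methylation of ribosomal RNA. The 4 members listed under them, a part of their proteins, all had negative differences. This held as deposited, with median centring and with cyclic loess. None passed the test. The largest was Nop56, a core scaffold protein. It read 7142, 6234 and 10236 in null and 9584, 7157 and 11866 in wild type. The groups overlapped because number 3 was high in both genotypes, but in each number the null pool was the lower (-0.42, -0.20 and -0.21). The difference was -0.28, with a 95% interval of -1.01 to 0.45 without the block and -0.47 to -0.09 in the paired trend and robust fit, where the adjusted p was 0.355. Its second probe set differed by -0.20.

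Rrp9, a protein of the particle used in early cleavage of the precursor, differed by -0.18. Fbl (fibrillarin, the methyltransferase) read 9464 to 10477 in null and 10376 to 10882 in wild type, a difference of -0.10 with overlapping groups. Nop58, the partner of Nop56, differed by -0.09 and had mixed signs over the numbers. The median of these 4 genes was -0.14, against -0.0094 for the 9097 genes at or above the median signal.

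The box H/ACA snoRNPs convert uridine to pseudouridine, and their proteins also serve telomerase. Of their 4 proteins, 2 had negative and 2 positive differences. Dkc1 (dyskerin, the pseudouridine synthase) differed by 0.01 (95% interval -0.46 to 0.47). Its gene is X-linked, and the pools differ in sex make-up (see the array checks). The second Dkc1 probe set was highest in wild-type pool 1, at 7021, against 4216 to 5300 elsewhere. The dimmest was lowest in that pool, at 751. The part of sex make-up in these values was not tested. Without wild-type pool 1 the representative differed by -0.0055. Nop10 read 10661 in null pool 1 and 13738 in wild-type pool 1, its lowest pair, and 16267 to 18638 on the other 4 arrays. Within the numbers it differed by -0.37, -0.18 and -0.03, and its adjusted p was 0.558 in the paired trend and robust fit. Nhp2 differed by -0.15 and Gar1 by 0.09, the latter highest in both pools numbered 2.

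RNA polymerase I subunits held the largest difference. Polr1b, which with Polr1a forms the catalytic core, read 1882, 1586 and 1830 in null and 2347, 2029 and 2533 in wild type. The groups did not overlap, as for 4.56% of all genes with null lower, and the differences within the numbers were alike at -0.32, -0.35 and -0.47. The mean difference was -0.38 (SE 0.18, 95% interval -0.82 to 0.06, limma adjusted p = 0.975). In the paired trend and robust fit the interval was -0.61 to -0.15 and the adjusted p 0.274, the lowest of any member in the 15 alternatives. Between genotypes lay 71.2% of its spread. It has 1 probe set here.

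Polr1a read 1698, 1718 and 1497 in null and 1731, 2126 and 1830 in wild type. These groups also did not overlap, though null pool 2 and wild-type pool 1 nearly met, and the difference was -0.21 (95% interval -0.63 to 0.22). A dimmer Polr1a probe set read the opposite way. Polr1c, shared with RNA polymerase III, differed by 0.06 and Polr1e by 0.04. The factors that start transcription were near 0 as well: Ubtf, which coats the ribosomal DNA, differed by 0.09 and Rrn3, which brings the polymerase to the promoter, by -0.11.

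Among the small subunit factors, Rrp12 and Nob1 varied widely between replicate numbers. Rrp12, needed for export of the subunits, read 1194, 759 and 1106 in null and 1173, 501 and 942 in wild type. Both pools numbered 2 were lowest and both numbered 1 highest, with null above wild type in each number (0.02, 0.60 and 0.23). The mean of 0.29 had a 95% interval of -0.67 to 1.24, and it turned to -0.07 without wild-type pool 2. Nob1, the endonuclease that makes the final cut of the small subunit RNA, read 3014, 1518 and 2129 in null and 3075, 2111 and 2536 in wild type. It followed the numbers in the same order, with 80.1% of its spread between them, and its mean difference was -0.25 (95% interval -1.03 to 0.52).

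The others of this role differed less. Wdr43, a component of the early processing complex, was higher in null within every number (0.08, 0.21 and 0.17), with a mean of 0.15. Its second probe set differed by -0.10, with -0.46, 0.12 and 0.03 within the numbers. Nat10, which acetylates ribosomal RNA, was lower within every number (-0.26, -0.02 and -0.09), with a mean of -0.12. Utp20 differed by -0.15. Heatr1 was almost level, at 3291 to 3334 in null and 3154 to 3500 in wild type.

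In 6 of the 7 large subunit factors the difference of the chosen probe set was at most 0.03 in size. Bop1, Pes1 and Wdr12, which form one complex, differed by 0.02, 0.00084 and -0.0091. Pes1 nevertheless ranged from 2538 to 4242 over the arrays, with both pools numbered 2 lowest. Ebna1bp2, a binding partner of that complex, differed by 0.03, the methyltransferase Nop2 by 0.01 and the helicase Ddx18 by -0.0043. Nop2 had 95.6% of its spread between the numbers, from 1415 to 2244. Ddx21, a helicase that acts in both transcription and processing, was the exception: it read 5380, 4747 and 5238 in null and 4047, 4100 and 4874 in wild type. The groups overlapped slightly, null was the higher within each number, and the mean was 0.24 (95% interval -0.18 to 0.66, paired trend and robust adjusted p = 0.514). Its second probe set differed by -0.04. Other probe sets of the large subunit factors did not all stay near 0. The second Pes1 probe set differed by 0.19, with 0.18, 0.26 and 0.12 within the numbers. Second ones of Ddx18 and Wdr12 differed by 0.07 and 0.08. With probe sets averaged, dim ones included, Bop1 moved to -0.50, Ebna1bp2 to -0.20, Ddx18 to -0.11 and Wdr12 to 0.59.

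**Figure D3:**
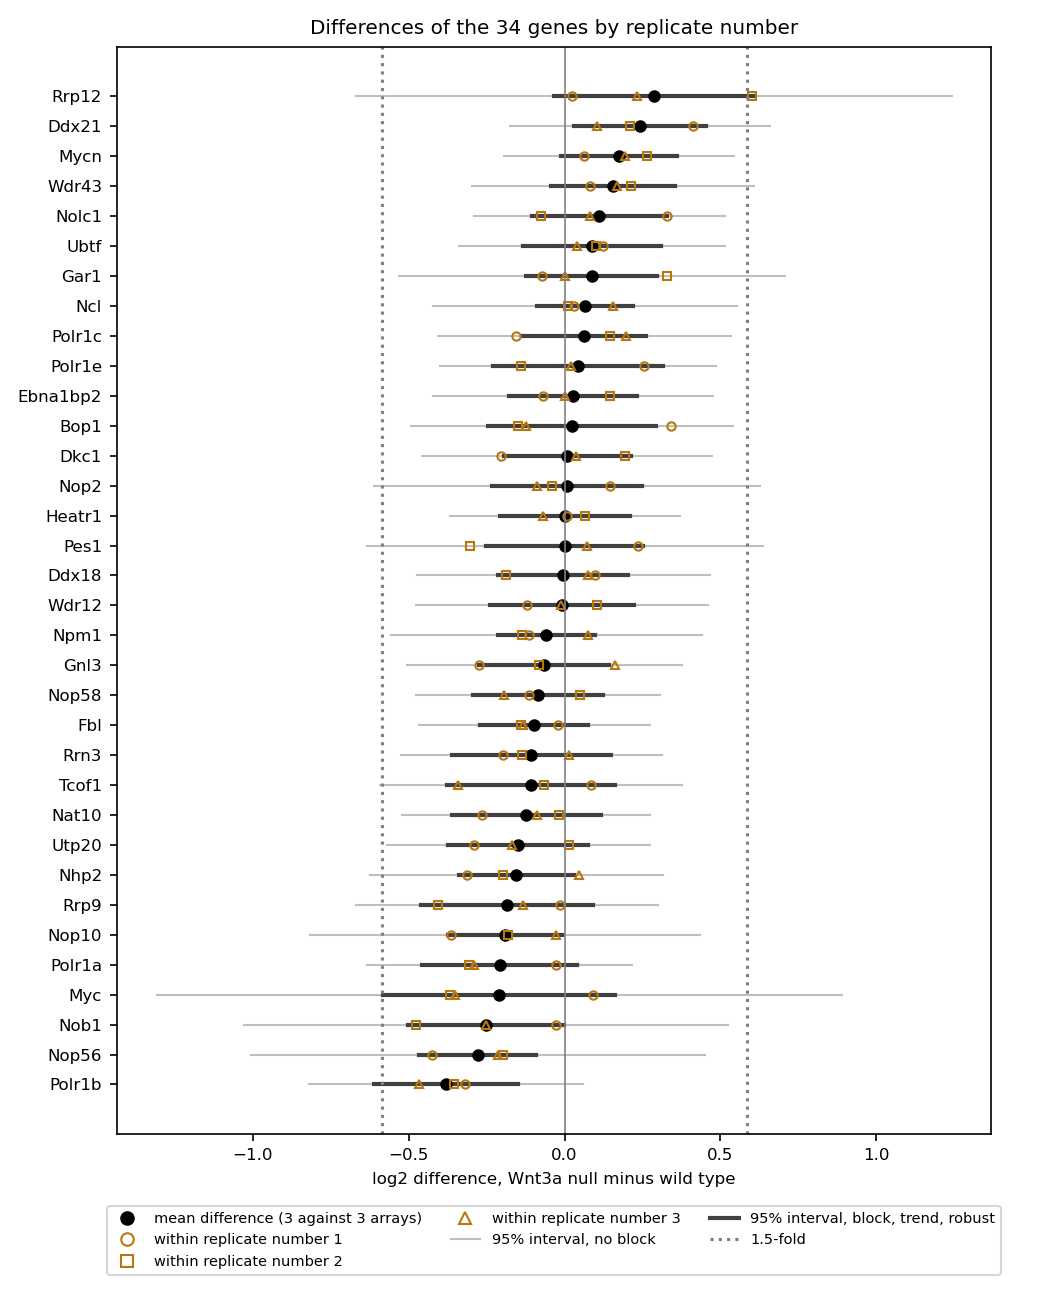
log2 difference, Wnt3a null minus wild type, of the 34 genes. Filled points are means, open symbols the differences within replicate numbers 1 to 3, light bars 95% intervals without the block and dark bars 95% intervals in the paired trend and robust fit. The means run from -0.38 (Polr1b) to 0.29 (Rrp12) and all lie inside the dotted 1.5-fold lines.

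Across the 34 genes, 18 had negative and 16 positive differences, with a median of -0.0067 against 0.0050 for all genes. The median size of the difference was 0.10, against 0.22 for all genes and 0.12 for genes at or above the median signal. The direction of the small median rests on the scaling: 25 of 34 were negative after median centring (median -0.06) and 16 after cyclic loess (median 0.02). On the chosen probe sets all 34 means were within 1.5-fold, as were 76.0% of all genes and 96.4% of the brighter ones. Groups did not overlap for 3 members (8.82%; 10.1% of all genes). Within all 3 numbers null was lower for 8 (Fbl, Nop56, Rrp9, Nop10, Polr1a, Polr1b, Nob1 and Nat10), against 14.7% of all genes. It was higher for 6 (Mycn, Ncl, Ubtf, Wdr43, Rrp12 and Ddx21), against 15.5%. Among the 9097 brighter genes 1653 were lower and 1467 higher within all 3 numbers. Either sign held throughout in 41.2% of members, 34.3% of the brighter genes and 30.2% of all genes.

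More of the members' spread lay between replicate numbers than between genotypes. The number-to-number mean square exceeded that of genotype in 25 of the 34 genes (73.5%), against 63.3% of all genes and 68.9% of the brighter ones. The median share of the sum of squares was 65.2% for number and 11.9% for genotype, against 60.0% and 10.4% for the brighter genes. In 10 members both arrays numbered 3 were the highest, in 8 both numbered 1 were the lowest and in 7 both numbered 2 were the lowest. Among the 9097 brighter genes these counts were 700, 1570 and 1436. Some number stood at an end in 73.5% of members, 57.5% of the brighter genes and 45.9% of all genes. Which number it was differed from member to member, but not evenly. Number 3 was the highest in 10 of the 34 and the lowest in 1, against 700 and 549 of the 9097 brighter genes. The members' median deviation from their means was 0.08 and 0.07 on null and wild-type array 3, and -0.06 to -0.02 on the remaining arrays. Over all genes it was 0.02 on both arrays numbered 3. The 9 members with the larger mean square between genotypes were Mycn, Nolc1, Fbl, Nop58, Polr1a, Polr1b, Utp20, Nat10 and Ddx21.

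**Figure D4:**
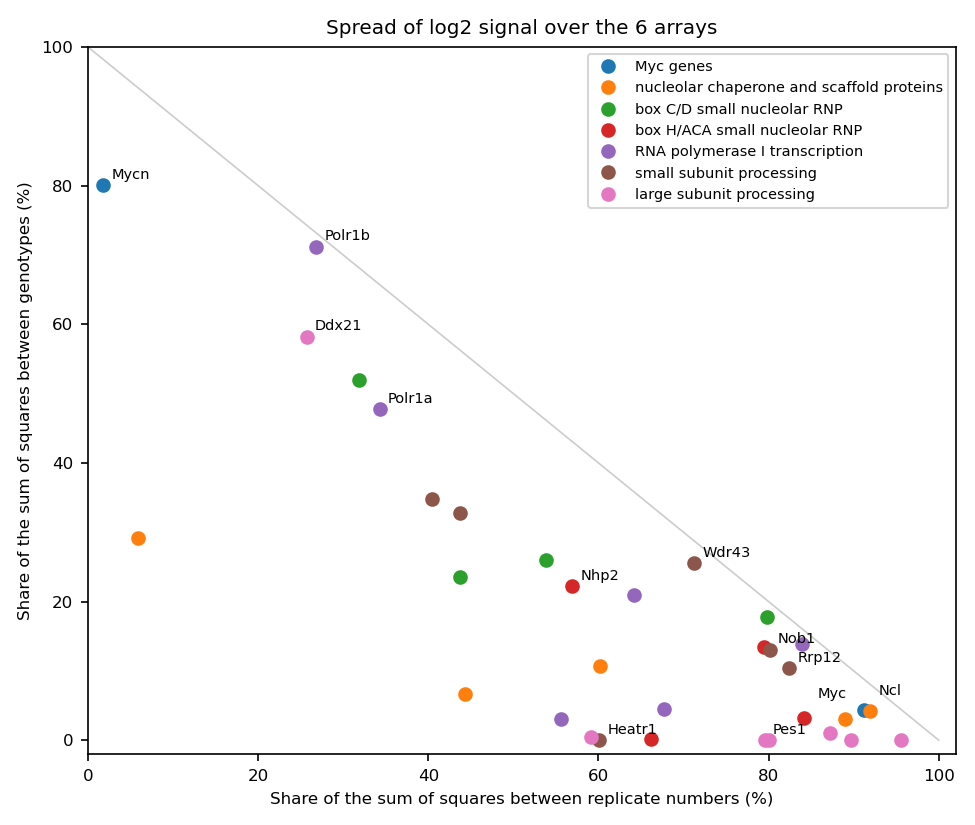
Share of the sum of squares of log2 signal between replicate numbers (horizontal, %) and between genotypes (vertical, %) for the 34 genes, coloured by role. The diagonal marks 100% in all, and the remainder is residual. Most genes lie at the lower right, Myc at 91.2% and 4.35%, while Mycn lies at 1.74% and 80.1%.

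Where genes had more than 1 probe set, agreement was partial. Of the 34 genes 11 had 1 probe set and 23 several. In 18 of these at least 2 probe sets were above the median signal, and those had 1 sign in 10 genes and lay within 0.25 of each other on the log2 scale in 11. Besides Ncl and Polr1a, Dkc1 (-0.07 to 0.33), Nolc1 (0.02 to 0.33) and Tcof1 (-0.17 to 0.14) had wide ranges. Those of Ddx21 (-0.04 to 0.24) and Wdr43 (-0.10 to 0.15) also exceeded 0.25.

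The other genes of the pathway held no call either. Of the 13 other genes of the Myc network 0 passed the test, 9 being negative, with a median of -0.06. Mycl, a further Myc paralogue, read 336, 306 and 317 in null and 651, 352 and 530 in wild type. Its groups did not overlap, and the difference of -0.63 had a limma adjusted p of 0.975. Mnt, a repressor that also pairs with Max, differed by 0.23, and Mxd3, another, by 0.24.

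Among 37 other small subunit factors 0 passed (22 negative, median -0.03). The 3 with the smallest p, Nol10, Pwp2 and Fcf1, differed by 0.27, -0.21 and -0.21 on the log2 scale. Among 40 measured large subunit factors 0 passed (24 negative, median -0.05). Nol8 read 1101, 1131 and 1464 in null and 741, 867 and 944 in wild type, with no overlap. Its difference of 0.53 had an unadjusted p of 0.041 and a limma adjusted p of 0.95. Gnl3l differed by 0.28 and the helicase Ddx27 by 0.23.

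Of 10 other RNA polymerase I genes 0 passed (4 negative, median 0.04). Znrd1, a small subunit of the enzyme, read 3555, 3402 and 2914 in null and 4812, 4290 and 3778 in wild type. As in Polr1b every null array was the lower, and the difference of -0.38 had a limma adjusted p of 0.975. Taf1a, of the promoter selectivity factor, differed by -0.29 and the subunit Polr1d by -0.20. Of 10 measured genes listed under snoRNP assembly 0 passed (4 negative, median 0.07), with Zfp593 at 0.24, Naf1 at 0.19 and Fbll1 at 0.70. Within the numbers Fbll1 differed by -0.04, 2.29 and -0.14, with a signal of 35.8 in wild-type pool 2.

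Myc targets outside the nucleolus gave 0 of 28 measured genes past the test (18 negative, median -0.04). Tyms differed by 0.42, Mthfd2 by -0.25 and Smyd2 by -0.28. Of 46 cytosolic ribosomal protein genes 0 passed. In this list 39 were negative as deposited (median -0.09), 40 after median centring (-0.14) and 31 after cyclic loess (-0.02). The median was -0.14 in number 1, -0.17 in number 2 and 0.03 in number 3, so number 3 did not share the sign. Rpl35 differed by -0.27 and the related genes Rpl39l and Rpl3l by -0.47 and 1.09. Rpl3l was very dim, at 4.10 to 27.0 over the arrays.

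**Figure D5:**
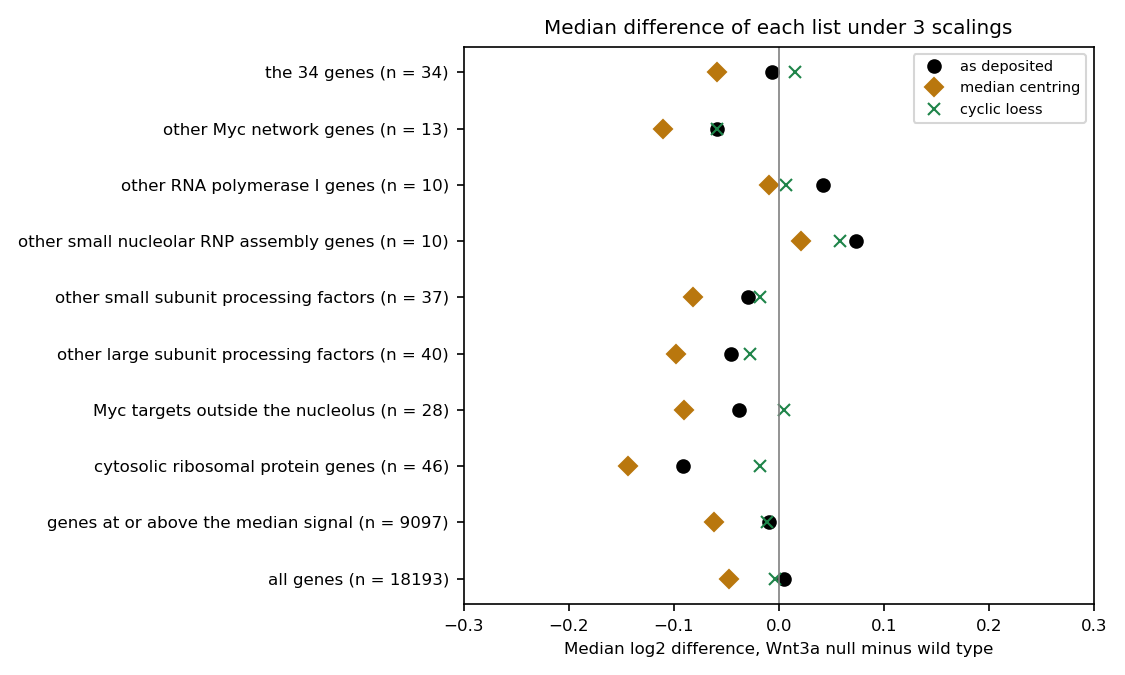
Median log2 difference, Wnt3a null minus wild type, of the 34 genes, 7 further pathway lists, the brighter genes and all genes under 3 scalings of the arrays, with the number of genes measured. The medians plotted lie between -0.14 (ribosomal protein genes, median centring) and 0.07 (snoRNP assembly genes as deposited), and that of the 34 genes changes sign with cyclic loess.

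The array checks bear on all values. The arrays had one trimmed mean as deposited, and the median signal of the 6 arrays was 73.6 to 86.1. Gapdh 3' to 5' ratios were 2.09 to 2.39 in null and 2.51 to 3.00 in wild type, those of actin 2.38 to 3.83 and 2.68 to 3.69. Of 13 measured node and streak markers 12 were negative (median -0.68). Their summed signal was 18716 to 23666 in null and 24919 to 30639 in wild type, and Tbx6, a mesoderm gene that needs Wnt3a, read 612 to 704 and 1069 to 1120. Noto, a node marker, and T were not analysed here. All 6 anterior neural markers were positive (median 1.00, summed signal 2537 to 4564 and 1840 to 2624), and 4 of 6 heart markers (median 0.90, summed 2501 to 3296 and 1356 to 1777). Only 2 of the 6 neural and 3 of the 6 heart markers lay above the median signal of all genes. Sox2, the brightest neural marker, differed by 0.23 and Otx2 by 2.55. The 2 negative heart markers were Nkx2-5 (-0.43) and Actc1 (-0.13). The 4 measured blood markers summed to 237 to 533 and 151 to 405, with Hba-x at 2.61 to 55.6 over the arrays. The 6 yolk sac endoderm markers (median -0.04) summed to 35215 to 51342 and 29942 to 70251. In pooled tissue, fewer cells of a type and less RNA per cell cannot be told apart, and the part of these shifts in the members' values was not tested. Wild-type pool 1 had almost no Y-linked signal (Eif2s3y at 4.31, against 1053 to 1788 elsewhere) and Xist was highest in both pools numbered 1 (5047 and 7440, against 1871 to 2707). Without both these arrays 0 of the 34 genes passed, 21 were negative and the median was -0.06. On the chromosome that carries Wnt3a lie Npm1, Nhp2, Ubtf and Pes1. The nearest is Nhp2, 100 measured genes away, and strain background around the null allele was not tested.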

How the data were processed

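RNA of 6 pools was measured on Affymetrix arrays. The deposited table holds 45101 probe sets as intensity on a linear scale. The processing notes of the submitters list RMA, with no version. RMA output would be on a log scale and alike in distribution between arrays, and these intensities are neither: trimmed by 2% at each end, every array has a mean of 500.003 or 500.004. How they were made was not given in the sources used here. Because the design had assumed log2 values, log2 was taken. Of 45037 probe sets that are no controls, 34945 have 1 symbol (932 several, 9160 not listed), giving 18193 genes by brightest probe set. No filter was set.

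The comparison of null and wild type used limma 3.58.1 in R 4.3.3 (lmFit, eBayes, two-sided, Benjamini-Hochberg over all genes, threshold 0.05). Over the 9690 genes with mean log2 above 7, which include every member, deviations from genotype means correlated within numbers 1 to 3. The values were 0.418, 0.440 and 0.270 (bound 0.1), so arrays of one number were treated as pairs in the alternative fits with the block. The main test had no block, so intervals and adjusted p values ignore the pairing unless a paired fit or the block is named. Over all genes the values were 0.0727, 0.0537 and 0.0284. The numbers come from the labels, which do not say what they share. Fits were tested on simulated data. Alternatives were the mean of probe sets, single probe sets, a filter, trend and robust options, the block, 2 scalings, log2(signal + 50), and leaving out arrays. Members, lists and tests were chosen with earlier results of these data known. Named genes are all members, every Ncl probe set and, per further list, up to 3 genes with the smallest p. The labels call the pools of a genotype biological replicates. The number of arrays limits the precision. RefSeq names matched 34741 of the 34945 probe sets by gene ID.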

Additional observations from a re-analysis of the deposited data

Results flagged for a closer look

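A second, dimmer Polr1a probe set with the suffix a_at, which the comparison of genes did not use, read 255, 251 and 299 in null pools 1 to 3 and 174, 212 and 231 in wild-type pools 1 to 3. All 3 null arrays lay above all 3 wild-type arrays, a log2 difference of 0.39, whereas the brightest Polr1a probe set lay apart in the other direction (-0.21). Its limma adjusted p over all probe sets was 1.00. Samples far from their group were not looked for, since each group has 3.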

How the results depend on the processing

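No member passed the threshold in any of the 15 alternatives run on genes, and the lowest adjusted p of a member was 0.274. The count of all genes called was 0 without a block, 1 with trend and robust options and 11 when the replicate block was added to them; the replicate block alone gave 0, and neither fit with the block changed a member's call. The members' median difference was -0.0067 and moved to -0.0779 with each gene's probe sets averaged, -0.0589 with median centring and -0.0582 without both arrays of number 1, which was chosen after seeing the data. Leaving out 1 array at a time gave -0.0833 to 0.0382, positive without null pool 1 or wild-type pool 3, and 14 to 23 negative members. The x_at probe set of Ncl passed only in the paired trend and robust fit and in that fit without number 2. In 15 members the sign held in every setting, 11 lower and 4 higher. Testing every probe set by itself gives no median of members. Causes of these shifts were not tested. Signal over background was not used here.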
